A study of Boechera gunnisoniana with 7 samples.

Results

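The replication licensing MCM genes and the PCNA genes of *Boechera gunnisoniana*, a triploid plant that forms seeds by obligate diplosporous apomixis, were followed across the cell types of the ovule on *Arabidopsis* ATH1 GeneChips. Both are called licensing genes below for short, although PCNA acts at the replication fork. They comprise the minichromosome maintenance genes *MCM2* (*AT1G44900*), *MCM3* (*AT5G46280*), *MCM4* (*AT2G16440*), *MCM5* (*AT2G07690*), *MCM6* (*AT5G44635*) and *MCM7* (*AT4G02060*), and the sliding clamp genes *PCNA1* (*AT1G07370*) and *PCNA2* (*AT2G29570*). The genes were chosen by their *Arabidopsis* identifiers and not by their values, although earlier results of these data were known. Of these 8 genes, 7 had a row among the 21428 genes of the table, and *MCM6* was not analysed here. The apomictic initial cell (AIC), which takes the place of the megaspore mother cell and skips or aborts meiosis, and the sporophytic nucellus tissue around it were each represented by 2 arrays. From the mature gametophyte, egg cell, central cell and synergid cells were represented by 1 array each. All samples came from greenhouse plants of the same species, and each was a pool of sections collected by laser-assisted microdissection. Flowers with mature gametophytes were emasculated some hours before fixation, which the methods do not state for the buds with AIC and nucellus. AIC sections can carry some nucellus, and sections of the gametophyte cells can carry some of the cells next to them.

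The MCM proteins form the ring-shaped helicase that unwinds DNA ahead of the replication fork. In the G1 phase the origin recognition complex, CDC6 and CDT1 load this ring onto origins, which licenses them for a single round of replication. PCNA encircles the DNA behind the helicase and holds the polymerases and many repair and chromatin factors at the fork. In *Arabidopsis*, transcripts of both gene groups are typical of dividing tissue and are induced by E2F factors at the entry into S phase.

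Expression values are on the log2 scale, 1 per gene and array. The presence limit is the value above which a gene counts as detected over background on its array at a p value of 0.02. The AIC arrays had limits of 4.97 and 5.01 and the nucellus arrays limits of 4.96 and 5.07. Among the gametophyte cells the limit was 4.94 for the egg cell, 5.59 for the central cell and 5.29 for the synergid cells. *Boechera* RNA was hybridized to probes designed on *Arabidopsis*, so the value of a gene also depends on how well its probes match, and a value under the limit is no evidence of absence. Where no array of a group exceeded its limit, the group has only an upper bound. A ratio is then given as "at least", from the mean of the brighter group and the presence limits of the dimmer one. Such a bound leaves out the spread between arrays and is no confidence limit. The log2 differences and SEs of the fit are those of the values as deposited. For the same reason levels were compared between arrays and not between genes. The number of arrays limits the precision, and although the pairs are described as biological replicates, it is not stated whether they came from separate plants, so the p values measure the spread between these samples.

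Genes of the group above the presence limit were found on 4 of the 7 arrays. An MCM gene was among them on both AIC arrays and the egg cell array, but not on the first nucellus array. On the AIC arrays 3 of the 7 genes were above the presence limit on each, *MCM3*, *PCNA1* and *PCNA2*, against 26.5% and 26.1% of all genes (21.7% on both). On the first nucellus array *PCNA1* and *PCNA2* were above it (28.6% of the group against 26.6% of all genes). On the egg cell array *MCM4* and *PCNA2* were above it (28.6% against 27.2%), so that both shares were near those of all genes. Hence 0 of 7 were above it on both nucellus arrays (20.2% of all genes). No gene of the group was above it on the second nucellus array, the central cell array or the synergid cell array, where 24.4%, 13.9% and 19.4% of all genes were. *MCM2*, *MCM5* and *MCM7* were under the limit on all 7 arrays, as were 60.1% of all genes. At a stricter p value of 0.01 each AIC array kept 2 genes, as *MCM3* was then under the limit on the first and *PCNA1* on the second, so that *PCNA2* was the gene above it on both.

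**Figure D1:**
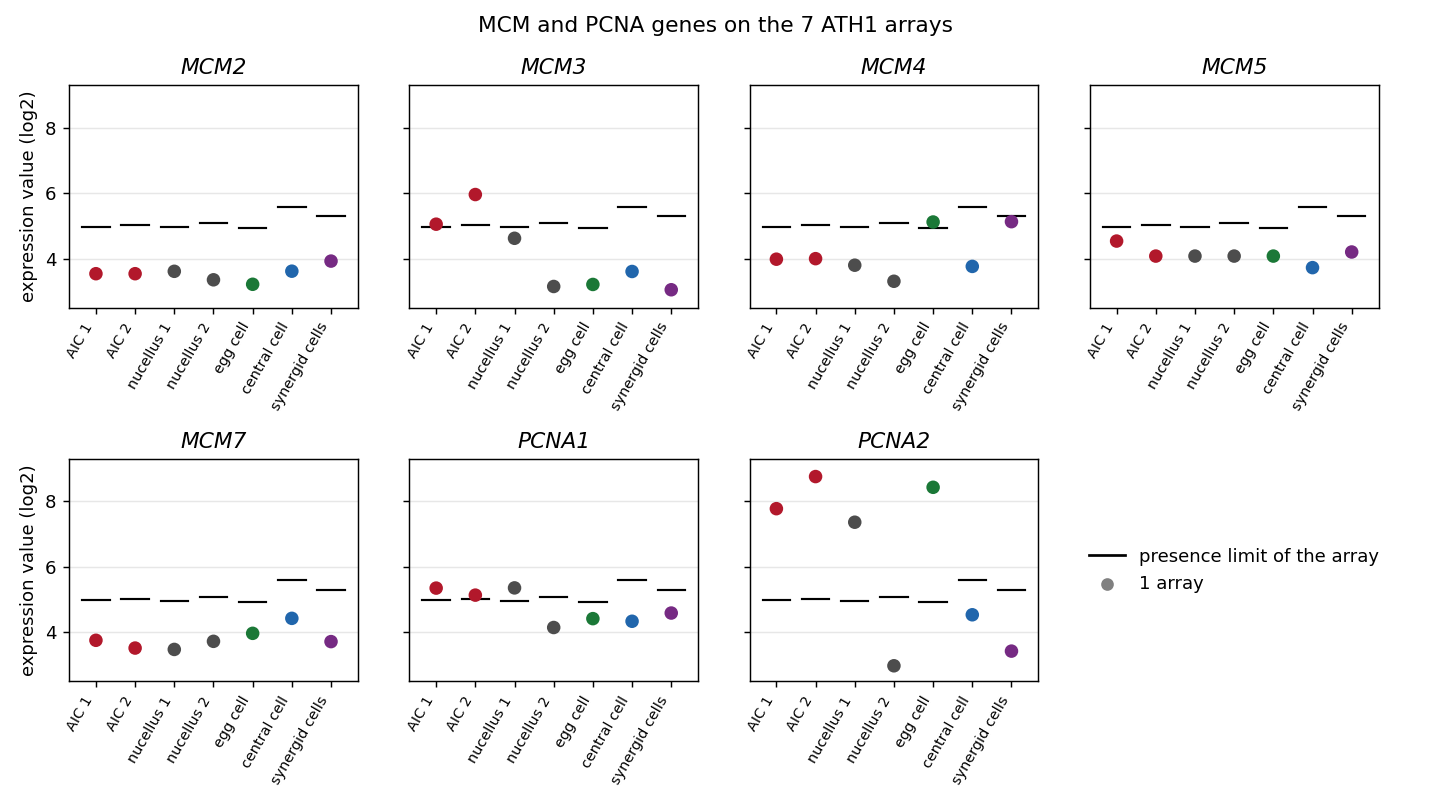
Log2 expression values (y axis) of the 7 measured MCM and PCNA genes on the 7 arrays (x axis). Each point is 1 array, coloured by cell type, and the black dashes mark the presence limit of that array. *PCNA2* lies far above the limit on both AIC arrays, the first nucellus array and the egg cell array, and under it on the other 3.

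*PCNA2*, 1 of both genes for the sliding clamp, differed most between arrays. Its values were 7.77 and 8.75 in the AIC, 7.36 and 2.98 in the nucellus, 8.43 in the egg cell, 4.53 in the central cell and 3.42 in the synergid cells. The AIC, egg cell and first nucellus arrays thus lay between 7.36 and 8.75, and the other 3 arrays between 2.98 and 4.53, with no value in between. The range of 5.78 over the 7 arrays was wider than that of 99.6% of the genes. The nucellus pair differed by 4.38, and 77 of the 21428 genes had a nucellus pair difference at least as large. The order of the group means was egg cell, AIC, nucellus, central cell, synergid cells, and no gap between neighbours in this order exceeded that difference. As these are samples of tissue sections, fewer cells that transcribe the gene and less transcript per cell cannot be told apart.

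*PCNA1*, the paralogue of *PCNA2*, shared 3 of the 4 high arrays of *PCNA2*, with a range of 1.21 over the 7 arrays. Its values were 5.35 and 5.13 in the AIC, 5.35 and 4.14 in the nucellus, 4.42 in the egg cell, 4.34 in the central cell and 4.59 in the synergid cells. The 3 values above the limit belong to both AIC arrays and the first nucellus array. Unlike *PCNA2*, *PCNA1* was under the limit on the egg cell array. Whether transcripts of either gene also bind the probes of the other was not tested.

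*MCM3*, a subunit of the helicase ring, was the MCM gene detected in the AIC. It had 5.05 and 5.95 in the AIC, 4.62 and 3.15 in the nucellus, 3.21 in the egg cell, 3.60 in the central cell and 3.05 in the synergid cells. Both AIC arrays were higher than each of the other 5 arrays, and the first AIC array exceeded its limit by 0.08. The gap of 1.62 between the AIC and the nucellus, next in order, was larger than the pair difference of 0.91 in the AIC and of 1.47 in the nucellus. The gaps between the nucellus and the 3 gametophyte cells were smaller than these pair differences.

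*MCM4*, another subunit of the same ring, had its highest values in other cells. It reached 5.11 in the egg cell and 5.12 in the synergid cells, against 3.98 and 3.995 in the AIC, 3.80 and 3.30 in the nucellus and 3.76 in the central cell. The egg cell value was above the limit of its array, whereas the synergid cell value was under a higher limit. The step of 1.13 from the egg cell to the AIC exceeded the larger pair difference of 0.49, and the egg and synergid cells differed by 0.01. Neither cell type had a second array.

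The other MCM genes stayed within 1 log2 unit. *MCM2* ranged from 3.21 in the egg cell to 3.92 in the synergid cells, *MCM5* from 3.72 in the central cell to 4.53 on the first AIC array, and *MCM7* from 3.48 on the first nucellus array to 4.42 in the central cell. *MCM2* had exactly the same value on both AIC arrays, and *MCM5* had exactly the same value on the second AIC array, both nucellus arrays and the egg cell array, so that the SD of these pairs is 0. Some gaps between cell types exceeded the pair differences, such as 0.46 between the central and egg cells for *MCM7* (larger pair difference 0.25), but all of these values are under the presence limit.

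Over the 7 arrays, which include the AIC and nucellus pairs, Pearson's r between the MCM genes ranged from -0.55 for *MCM5* and *MCM7* to 0.30 for *MCM3* and *MCM5*. *MCM3* had an r of 0.83 with *PCNA1* and of 0.70 with *PCNA2*, and *PCNA1* and *PCNA2* one of 0.67. These values describe 7 arrays and carry no test, and those of *MCM2*, *MCM5* and *MCM7* are between readings under the limit. The mean of the 5 MCM genes was 4.17 and 4.21 in the AIC, 3.91 and 3.52 in the nucellus, 3.92 in the egg cell, 3.82 in the central cell and 4.001 in the synergid cells. It was highest in the AIC and lowest on the second nucellus array, over a span of less than 1 log2 unit. In the AIC it includes *MCM3* at 5.05 and 5.95, whereas *MCM2*, *MCM4*, *MCM5* and *MCM7* were under the limit on both AIC arrays. The AIC peak of the mean thus depends on *MCM3*, and a mean without this gene was not taken. The single genes did not all share the AIC peak. *MCM3* and *MCM5* had their highest group mean in the AIC, *MCM2* and *MCM4* in the synergid cells and *MCM7* in the central cell. Of the other genes with a standard deviation of at least 0.5 over the 7 arrays (5783 genes), the 5 most like the mean of the 5 MCM genes had an r between 0.94 and 0.98, led by *AT3G03960* and *AT1G06110*.

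The AIC was compared with the nucellus to ask whether the first cell of the apomictic lineage differs from the tissue around it in its licensing genes. All 7 genes had a higher mean in the AIC, with a median difference of 0.44 against -0.01 over all genes, although *MCM2* and *PCNA1* were lower without the second nucellus array (-0.07 and -0.11) and *MCM7* was lower without the first AIC or the first nucellus array (-0.08 and -0.09). *MCM5* had a difference of 0 without the first AIC array. *MCM2*, *MCM4*, *MCM5* and *MCM7* were under the limit on all AIC and nucellus arrays. Their differences, among them that of *MCM4*, which is the median, are thus between readings under the limit. The log2 difference was 3.10 ± 1.76 (SE) for *PCNA2*, where 1 of the 2 nucellus arrays was above the limit, so that no ratio is given. It was 1.62 ± 0.68 for *MCM3*, which was under the limit on both nucellus arrays. By its AIC mean against these limits, *MCM3* was at least 1.4-fold higher in the AIC. However, the first AIC array alone, at 5.05, was under the limit of 5.07 of the second nucellus array. These 2 genes were higher by at least 1 (2.45% of all genes), and 0 of 7 were lower by at least 1 (2.92%). The AIC values of *MCM3*, *MCM4* and *PCNA2* did not overlap those of the nucellus and were all higher, as for 12.7% of all genes, and 0 of 7 genes were separated in the other direction (14.3%). None of these differences passed limma's test across all genes, where 0 of 7 genes and 0% of all genes had an adjusted p under 0.05. The adjusted p was 0.938 for *PCNA2* and for *MCM3*, and 0 of 7 genes against 3.82% of all genes had an unadjusted p under 0.05. The 95% interval of the difference reached from -2.24 to 8.43 for *PCNA2* and from -0.45 to 3.69 for *MCM3*. Without the second nucellus array the difference of *PCNA2* was 0.90 and that of *MCM3* 0.88, and no gene of the group was higher by at least 1. Without the first nucellus array they were 5.29 and 2.36.

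The 2 nucellus arrays differed from each other for several of these genes. *MCM3*, *PCNA1* and *PCNA2*, 3 of the 7, were lower on it than on the first by at least 1, as were 6.24% of all genes. Among 35 other replication genes 8 were lower by at least 1 on this array, and 2, *ETG1* and *RFC4*, were higher (5.06% of all genes). The 8 comprised the origin gene *ORC2*, the loading factor gene *CDC6A*, the GINS gene *SLD5*, the clamp loader gene *RFC3*, the polymerase delta gene *POLD1*, the DNA ligase gene *LIG1*, the replication protein A gene *RPA2A* and the ribonucleotide reductase gene *TSO2*. All of these except *LIG1* had their highest value of the 7 arrays on the first nucellus array. *POLD1*, for example, had 5.36 there, 3.21 on the second and at most 3.71 on the others. These counts thus do not tell which of both nucellus arrays departs from the rest. The labels give no further difference between both nucellus samples.

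**Figure D2:**
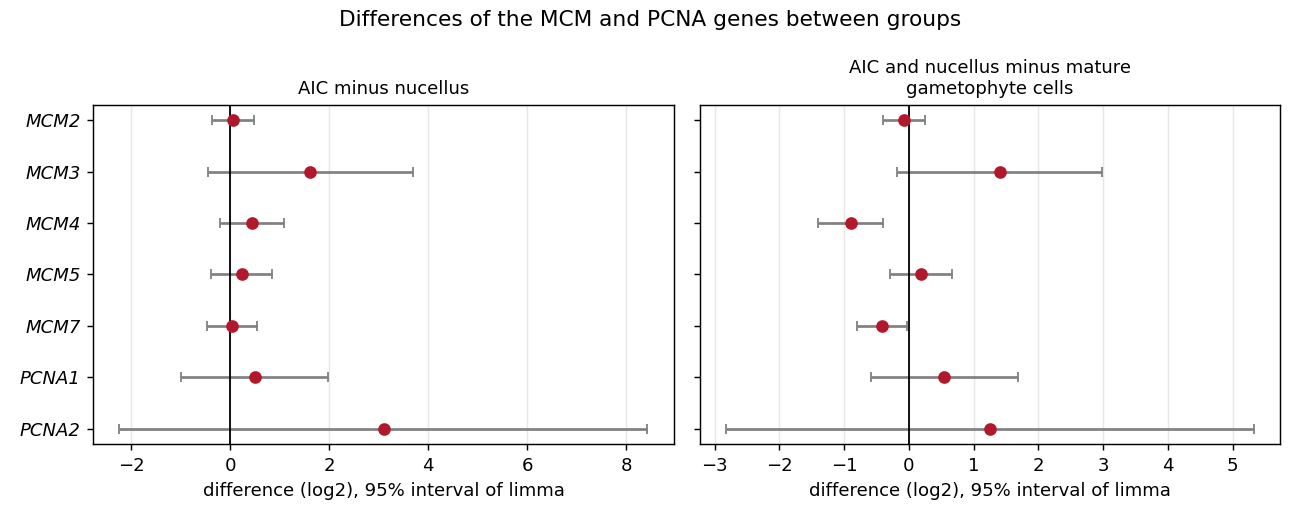
Log2 differences (x axis) of the 7 genes between groups, with the 95% interval of limma as bars. The left panel shows the AIC minus the nucellus and the right panel the AIC and nucellus minus the mean of the egg, central and synergid cells. The interval includes 0 for all genes on the left, and for all but *MCM4* and *MCM7* on the right, where neither passed adjustment over all genes.

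The young ovule samples, the AIC and the nucellus, were then set against the 3 cell types of the mature gametophyte. The emasculation of the flowers coincides with this grouping, and it and the cell types cannot be told apart. *MCM3* was higher in the young samples by 1.41 ± 0.52 on the log2 scale (adjusted p = 0.286, limma) and *PCNA2* by 1.26 ± 1.34 (adjusted p = 0.662, limma). In the opposite direction, *MCM4* had a difference of -0.90 ± 0.17 (adjusted p = 0.158, limma) and *MCM7* one of -0.42 ± 0.13 (adjusted p = 0.234, limma). 2 of the 7 genes were higher by at least 1 (4.8% of all genes), 0 were lower by at least 1 (1.49%), and 0 passed limma (0%). *MCM4* and *MCM7* were the 2 genes with an unadjusted p under 0.05 in limma, as were 19.8% of all genes. For no gene of the group were all 4 young values above, or all under, the 3 gametophyte values (3.97% and 7% of all genes). The value of *PCNA2* rests on single arrays: it was 2.74 without the egg cell array, 0.79 without the central cell array, 0.24 without the synergid cell array, 0.16 without the first nucellus array and 2.35 without the second. Without the central cell array that of *MCM4* was -1.35 and that of *MCM7* -0.22. *MCM7* was under the limit on all arrays and *MCM4* on all but that of the egg cell. Without the central or the synergid cell array, or without the first nucellus array, 1 gene in place of 2 was higher by at least 1.

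Set against each gametophyte cell type, the AIC had higher *MCM3* values in all 3 cases, and all 3 gametophyte values were under the limit. The log2 difference was 2.29 ± 0.84 to the egg cell (adjusted p = 0.540, limma), 1.90 ± 0.84 to the central cell (adjusted p = 0.376, limma) and 2.46 ± 0.84 to the synergid cells (adjusted p = 0.344, limma). For *PCNA2* the difference to the egg cell was -0.16 ± 2.15, with an interval from -6.70 to 6.37, and 0.33 without the first AIC array, whereas it was 3.73 ± 2.15 to the central cell (adjusted p = 0.492, limma) and 4.84 ± 2.15 to the synergid cells (adjusted p = 0.437, limma). Against the limits *MCM3* was at least 1.48-fold higher in the AIC than in the egg cell and at least 1.15-fold higher than in the synergid cells, with no bound for the central cell, whose limit is above the AIC mean. *PCNA2* was at least 6.4-fold higher in the AIC than in the central cell and at least 7.84-fold higher than in the synergid cells, with the adjusted p values just given. *MCM4*, under the limit on both AIC arrays, differed by -1.13 ± 0.27 from the egg cell (adjusted p = 0.395, limma) and by -1.14 ± 0.27 from the synergid cells (adjusted p = 0.269, limma), and by 0.23 ± 0.27 from the central cell. Against the AIC limits *MCM4* was at least 1.09-fold higher in the egg cell. The synergid and central cell values of *MCM4* were under their own limits and give no bound. Genes higher in the AIC by at least 1 numbered 1 against the egg cell (4.27% of all genes), 2 against the central cell (8.82%) and 2 against the synergid cells (6.39%). Lower by at least 1 were 1, 0 and 1 genes (5.35%, 4.08% and 4.18%), and limma called 0 genes in each comparison (0%). Unadjusted p values under 0.05 were found for *MCM4* against the egg and synergid cells and for *MCM7* against the central cell, 1 gene in each comparison (10%, 15% and 18.1% of all genes). The single arrays were assumed to vary like the AIC and nucellus pairs.

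Among the gametophyte cells themselves, with 1 array per cell type, values are given side by side and the differences were not tested. The *PCNA2* value of the egg cell was 3.89 above that of the central cell and 5.00 above that of the synergid cells, both of which were under the limit. Against these limits *PCNA2* was at least 7.17-fold higher in the egg cell than in the central cell and at least 8.78-fold higher than in the synergid cells. The *MCM4* value of the egg cell was 1.36 above that of the central cell but under the central cell limit, so that it gives no bound. Of the 7 genes, 2 were higher by at least 1 in the egg cell than in the central cell (10.6% of all genes) and 1 than in the synergid cells (8.19%), and 0 were lower by at least 1 (5.1% and 4.28%). Between the central and synergid cells, 1 gene was higher by at least 1 in the central cell (*PCNA2*, 4.05% of all genes) and 1 in the synergid cells (*MCM4*, 6.47%), but all of these values were under the limit, so that they give no order of these cell types.

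Technical measures also differed between these arrays. Presence limits were highest, and genes above them fewest, for the central cell and the synergid cells, and the mean of the 18 bacterial and phage hybridization controls was 11.4 and 12.5 on their arrays, against 9.25 to 10.7 on the other 5 arrays. The median over all genes was between 3.997 and 4.16 on every array. Of the cell type markers, the synergid genes *MYB98* and *NTA* were above the limit on the synergid cell array only, with 6.61 and 6.08, and their summed level was 7.37 there and 4.04 to 4.55 elsewhere. The central cell gene *AGL80* had its highest value of 6.60 in the central cell and was also above the limit in the egg cell (6.10), in the synergid cells (6.14), AIC array 1 (4.99) and nucellus array 2 (5.56). The other 5 central cell markers were under the limit on every array, and 2 of them, *FIS2* and *DME*, had their highest values in the egg cell. The summed level of all 6 was 7.20 to 7.71 in the gametophyte cells and 6.36 to 6.88 on the AIC and nucellus arrays. The 2 measured egg cell markers, *EC1.2* and *EC1.5*, and the 3 measured markers of nucellus and megaspore mother cell, *SPL/NZZ*, *WUS* and *AGO9*, were under the limit on every array, so the labels of these samples have no marker check. The part of these measures in the values of the licensing genes was not tested.

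The other genes of the replication machinery were taken from 3 lists, with 35 of 40 genes measured. For the AIC minus the nucellus, 0 of these genes passed limma, 3 had an unadjusted p under 0.05 (3.82% of all genes), 2 were higher in the AIC by at least 1 (2.45%) and 1 was lower (2.92%). Their median difference was 0.02. Between the young samples and the gametophyte cells 0 passed limma, 5 had an unadjusted p under 0.05 (19.8% of all genes) and 0 differed by at least 1, with a median of 0.02 against -0.05 over all genes.

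Of the 8 measured genes for origin recognition and MCM loading, *ORC2* was the gene above the presence limit, on 6 arrays, with values from 5.37 in the central cell to 6.83 on the first nucellus array. The loading factor genes *CDC6A*, *CDC6B* and *CDT1A* and the origin genes *ORC3*, *ORC4*, *ORC5* and *ORC6* were under it on all 7. With these included, 17 of the 35 other replication genes were under the limit on every array, as were 60.1% of all genes. For all 8 genes the AIC minus nucellus difference lay between -0.33 and 0.12.

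Of the 8 genes for helicase activation and MCM partners, *CDC45*, which joins the MCM ring to form the active helicase, was above the limit on all 7 arrays, as were 4 of the 35 genes and 9.55% of all genes. It had 7.83 and 6.16 in the AIC, 5.53 and 5.84 in the nucellus, 6.25 in the egg cell, 6.59 in the central cell and 6.43 in the synergid cells. The AIC minus nucellus difference of 1.31 ± 0.67 (adjusted p = 0.938, limma) was the highest of the 3 lists, with the AIC arrays 1.67 apart. The GINS gene *PSF1* had the opposite sign, with 5.33 and 4.97 in the AIC against 6.34 and 5.92 in the nucellus, a difference of -0.98 ± 0.24 (adjusted p = 0.938, limma). Its AIC and nucellus values did not overlap, as for 14.3% of all genes in this direction, and the highest value of 6.46 was that of the egg cell.

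Of the 19 clamp loader, polymerase and fork genes, the AIC arrays had 7 and 6 above the limit, the nucellus pair 8 and 4, and there were 8 on that of the egg cell, 5 on that of the central cell and 3 on that of the synergid cells. As shares these are 36.8% and 31.6% (26.5% and 26.1% of all genes), 42.1% and 21.1% (26.6% and 24.4%), 42.1% (27.2%), 26.3% (13.9%) and 15.8% (19.4%). The share was above that of all genes on both AIC arrays, the first nucellus array and the egg and central cell arrays. On the second nucellus array and the synergid cell array it was under that of all genes. *RFC5*, *RNR2A* and the chromatin assembly gene *FAS2* were above the limit on all 7. *LIG1*, which seals the fragments of the lagging strand, had 7.49 and 6.64 in the AIC, 7.04 and 4.92 in the nucellus, 6.81 in the egg cell, 5.07 in the central cell and 4.89 in the synergid cells. It was thus above the limit on the same 4 arrays as *PCNA2*, a pattern found for 1 of the 35 genes and for 0.835% of all genes. At a p value of 0.05, *LIG1* was above the limit on 6 arrays and *PCNA2* still on these 4. *TSO2*, a subunit of the enzyme that makes deoxyribonucleotides, had 6.63 and 6.63, 6.76 and 4.97, 6.26, 5.90 and 4.45 in the same order, and was above the limit on these 4 arrays and the central cell array. The r with *PCNA2* over the 7 arrays was 0.92 for *LIG1*, which ranked 28 of 5783 genes, and 0.89 for *TSO2*, which ranked 75. The genes most like *PCNA2*, *AT5G02240* and *AT5G64740*, both had an r of 0.99. The comparison with *PCNA2* was chosen after its values were seen.

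**Figure D3:**
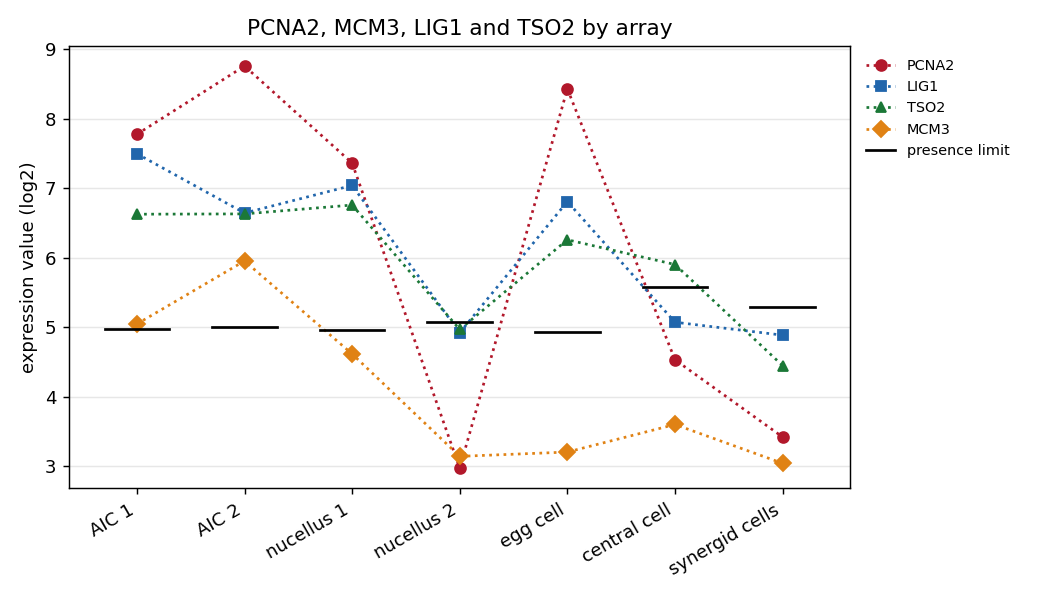
Log2 expression values (y axis) of *PCNA2*, *LIG1*, *TSO2* and *MCM3* on the 7 arrays (x axis), with the presence limit of each array as a black dash. Dotted lines connect the values of a gene and mark no order of samples. *PCNA2* and *LIG1* are above the limit on both AIC arrays, the first nucellus array and the egg cell array.

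Apart from *CDC45*, *PSF1*, *LIG1* and *TSO2*, the genes at the ends of these lists were above the limit on 0 to 3 arrays. *POLD1*, the lowest for the AIC minus the nucellus at -1.03 ± 0.92, had its single value above the limit, 5.36, on the first nucellus array, as did *RFC3* with 5.77 and a difference of -0.70. For the young samples minus the gametophyte cells, the lowest differences were -0.80 ± 0.08 for the ribonucleotide reductase gene *RNR1* (adjusted p = 0.144, limma), -0.59 for *POLA2* and -0.55 for *POLA1*, both of polymerase alpha. *RNR1* and *POLA2* had their highest values, 4.68 and 5.25, in the egg cell, where that of *RNR1* was under the limit, as were *RNR1* and *POLA1* on all 7 arrays. The highest differences were 0.94 for *LIG1*, 0.91 for *RPA2A* and 0.90 for the clamp loader gene *RFC4*. Adjusted p values of these genes ranged from 0.144 to 0.938 in limma.

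**Figure D4:**
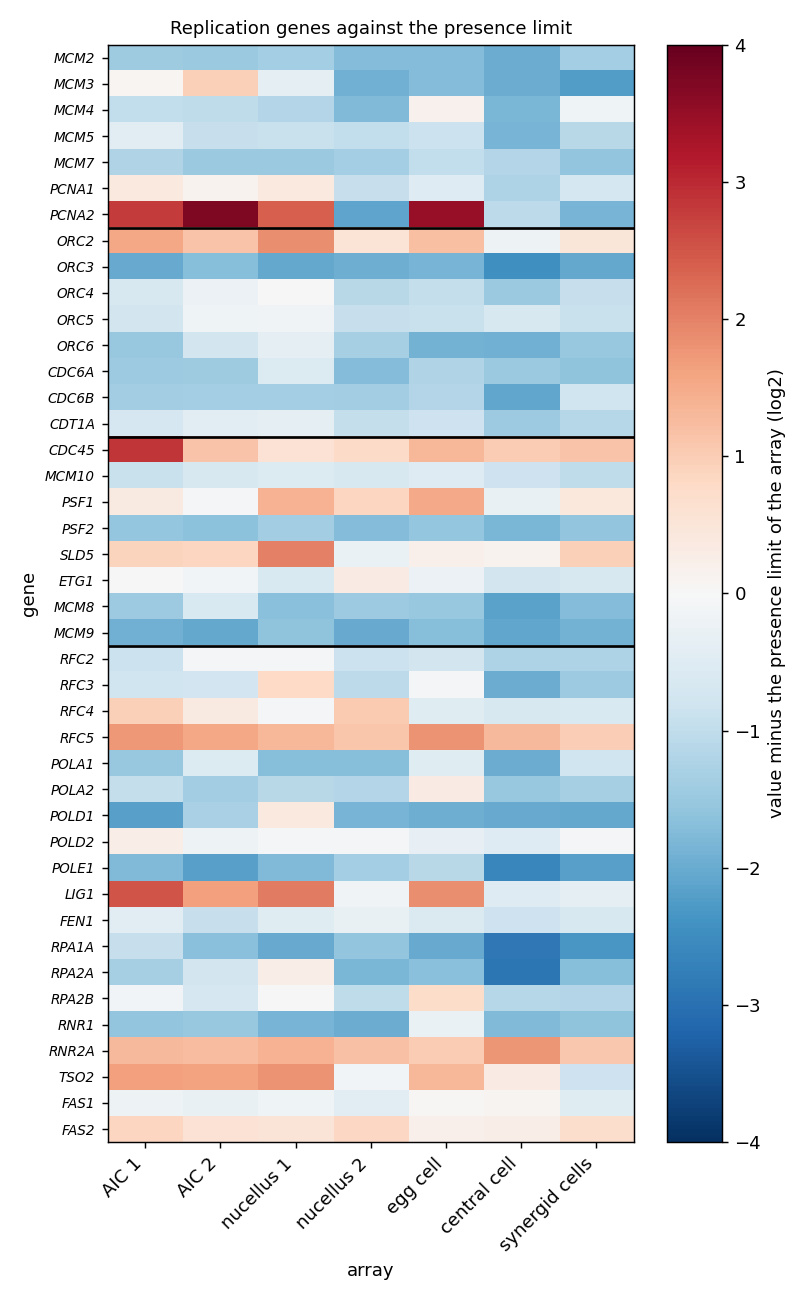
Value minus the presence limit of the array (colour, log2) for the 42 measured replication genes (y axis) on the 7 arrays (x axis). Black lines separate, from the top, the MCM and PCNA genes, the genes for origin recognition and loading, those for helicase activation and MCM partners, and those of clamp loader, polymerases and fork. Red marks values above the limit, as for *CDC45* and *RFC5* on all 7 arrays.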

How the data were processed

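Amplified RNA of microdissected cells was read on 7 ATH1 GeneChips. The values deposited by the authors are log2-scale expression values for each *Arabidopsis* gene on each array. The study's methods describe a probe grouping by gene and mention RMA, but no source used here states how the deposited table was normalized. The table held 21428 genes and 64 control features, and was used as deposited. Presence limits were read off as the deposited value that separates p values of 0.02 or lower from larger ones in 1999 rows of the published presence calls, *PCNA1* among them. They misplaced 0 of these features.

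Groups were compared with limma 3.58.1 (R 4.3.3) on all 7 arrays with 1 mean per group. The residual spread comes from the AIC and nucellus pairs, with 2 degrees of freedom. Adjustment was by the method of Benjamini and Hochberg over all genes, at 0.05. The routine was tested on simulated data. Tables and plots used Python 3.11.15. The genes and lists were chosen with earlier results of these data known. The text names all licensing genes, the 3 highest and 3 lowest other replication genes in the AIC-nucellus and young-mature comparisons, genes by which a list is described, and genes most like the MCM mean. Names of the other genes follow common *Arabidopsis* usage, as no annotation was used here. Alternatives were quantile normalization, median centring, a filter that kept genes above the limit on at least 2 arrays, a trended prior, each array left out, a fit to the AIC and nucellus arrays, a block for the replicate number, and other limits.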

Additional observations from a re-analysis of the deposited data

How the results depend on the processing

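limma called 0 of the 7 licensing genes in 45 of 45 alternatives, but with so few residual degrees of freedom this says nothing about stability. Over all genes the alternatives also gave 0 calls, except that quantile normalization gave 1 higher and 2 lower genes for the AIC minus the egg cell, none of them a licensing gene. Genes with an unadjusted p under 0.05 for the AIC minus the nucellus numbered 819, and 311 to 2054 under the alternatives. Of 208 alternatives for log2 differences of single licensing genes, 199 kept their sign, but many of the 208 could not change it. The trended prior, the filter (for genes it keeps), the fit to the AIC and nucellus arrays and the replicate block leave the difference unchanged by construction. So does leaving out a nucellus array where the AIC is set against a single gametophyte cell type. For the AIC minus the nucellus, with an array left out, *MCM2* ranged from -0.073 to 0.19, *MCM5* from 0 to 0.46, *MCM7* from -0.087 to 0.16 and *PCNA1* from -0.11 to 1.096. For the AIC minus the egg cell, *PCNA2* ranged from -0.65 to 0.33. For the young samples minus the gametophyte cells, *MCM2* changed sign with quantile normalization (0.012), with centred arrays (0.003) and without the synergid cell array (0.095). The cause was not tested.

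The number of genes higher by at least 1 in the AIC than in the nucellus ranged from 0 to 3 with an array left out, and was 0 without the second nucellus array. For the young samples minus the gametophyte cells, the number higher ranged from 1 to 2 and the number lower from 0 to 1 with an AIC or nucellus array left out. Without the central cell array 1 was higher and 1 lower, and without the synergid cell array 1 was higher. The filter removes *MCM4*, so that 0 genes were lower by at least 1 against the egg cell and 0 against the synergid cells. At a p value of 0.01, 2 genes in place of 3 were above the limit on each AIC array, with *PCNA2* above it on both. The egg cell array then had 1 gene above the limit. At 0.05, 1 gene was above it on the synergid cell array, and 3 in place of 2 on the first nucellus array, *MCM3* among them.

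Centring moved the median of all genes for the AIC minus the central cell from -0.07 to 0.08. There 1891 genes were higher and 875 lower by at least 1 as deposited, 1537 and 1463 after quantile normalization, and 2212 and 547 after centring. With the replicate number as a block, the differences between the AIC and the nucellus stay as they are by construction, 2 licensing genes were higher by at least 1, 0 genes were called and the adjusted p of *PCNA2* was 0.964. The AIC and nucellus pair differences had an r of 0.0314 across genes, and no label ties equal numbers to a shared batch.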
